A study of Mus musculus with 6 samples.

Results

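Condensin and cohesin are the ring-shaped protein complexes that shape and hold together the chromosomes of a dividing cell, and the mRNAs of 10 of their subunits were examined in cultured mouse muscle satellite cells (MuSCs). The 10 genes were 5 condensin genes (*Smc2*, *Smc4*, *Ncapd2*, *Ncapg* and *Ncaph*) and 5 cohesin genes (*Smc1a*, *Smc3*, *Rad21*, *Stag1* and *Stag2*). They were taken by symbol from the 20654 genes of the count table, and they were chosen from measured values, since earlier results of these same libraries were known when the list was drawn up. Their differences between the groups are therefore given as a description, and whether the fit across all genes called one of them is no independent evidence. All 10 passed the filter on low counts, which kept 8551 genes.

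The study asked how loss of PIEZO1, a mechanosensitive ion channel, affects the proliferation of MuSCs. RNA was sequenced from 3 control libraries, labelled wild type, and 3 libraries labelled *Piezo1* cKO, all on a C57BL/6 background. The labels give the control genotype as wild type and the study describes these controls as *Pax7*CreERT2/+, while its cKO carried *Piezo1* flox/flox with the same Cre. Both groups thus carried the tamoxifen-inducible Cre, which *Pax7* drives in MuSCs. Mice for ex vivo work were injected daily with tamoxifen, as the study describes. Cells were sorted as VCAM1+ and negative for CD31, CD45 and Sca1. They were cultured for 3 d in growth medium on Matrigel, with 4-hydroxytamoxifen added to both groups. The age of the animals was not given for this experiment, and nothing in the labels links libraries of the same number. The p-values therefore measure the spread between these libraries.

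Each library was a set of molecule counts per gene, obtained with unique molecular identifiers near the 3′ end of transcripts. The wild type libraries held 740936, 931168 and 891531 counts and the cKO libraries held 810096, 726378 and 769295. Levels are given as counts scaled to 1000000 per library (CPM) after trimmed-mean (TMM) normalisation. On this scale the floor of 3 counts was worth from 3.35 to 4.31 CPM across the libraries. A higher CPM of 1 gene than of another means more counted molecules and is not read as a difference in mRNA level between genes.

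*Piezo1* itself was counted 11, 5 and 6 times in the wild type libraries and 7, 12 and 9 times in the libraries labelled *Piezo1* cKO. The means were 9.49 ± 5.53 and 12.2 ± 3.50 CPM (SD, n = 3 each), the groups overlapped, and the two-sided exact permutation p was 0.5, where 0.1 is the smallest that 3 against 3 allows. The *Piezo1* mRNA was thus not lower in the libraries labelled cKO. Counts at the 3′ end do not show whether upstream exons were deleted, and the 3′ end of *Piezo1* overlaps *Ctu2* and *Gm20388* on the opposite strand. Every direction below rests on the labels.

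The labelled cell type was checked on its markers. *Myod1*, the myogenic determination factor, was at 1459 CPM in wild type and 1310 CPM in cKO on average. The 7 muscle stem cell and myoblast markers summed to 2701, 2345 and 2598 CPM in wild type and to 2714, 2149 and 2502 CPM in cKO, with overlapping groups. More than any other gene of the list, *Myod1* carried this sum. Of the others with high counts, *Des* (desmin) and *Itga7* (integrin alpha-7) averaged 527 and 249 CPM in wild type against 564 and 256 CPM in cKO, with overlapping groups. *Cdh15*, the M-cadherin gene, was higher in every cKO library, at 105 ± 30.8 against 152 ± 12.4 CPM, and *Vcam1*, the marker of the sort, was lower in every one, at 140 ± 14.6 against 102 ± 15.5 CPM, but neither passed the test over all genes (edgeR, adjusted p = 0.118 and 0.185). *Pax7*, the defining factor of quiescent and activated MuSCs, was low, between 6.60 and 29.0 CPM. Endothelial markers summed to at most 7.19 CPM in a library, with *Tie1* at 0, and leukocyte markers to at most 27.9 CPM, led by *Cd68*.

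Condensin and cohesin share a plan in which a pair of long SMC ATPases is closed by a kleisin subunit and carries accessory subunits built of HEAT repeats. In condensin I the ATPases SMC2 and SMC4 are joined by the kleisin NCAPH with NCAPD2 and NCAPG, and the complex compacts chromosomes into rods in mitosis. In cohesin the ATPases SMC1A and SMC3 are joined by the kleisin RAD21 with STAG1 or STAG2, and the complex holds sister chromatids together from S phase to anaphase and forms chromatin loops in interphase.

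The pair of condensin ATPases showed the clearest separation of the groups. *Smc2* stood at 246, 287 and 203 CPM in the wild type libraries and at 153, 141 and 156 CPM in the libraries labelled cKO. Every cKO library was below every wild type library, and the cKO values lay close together. At 121, 107 and 118 counts, this closeness is not read as a lower variation. The means were 245 ± 41.8 and 150 ± 7.96 CPM (SD, n = 3 each), and *Smc2* fell by 0.71 on the log2 scale (SE 0.145), which is to say it fell by 38.7%. *Smc4*, the partner ATPase, stood at 298, 328 and 255 CPM against 232, 198 and 232 CPM. These groups did not overlap either, at 294 ± 36.6 and 221 ± 19.5 CPM, and the log2 fold change was -0.41 (SE 0.138). In bulk RNA, fewer cells of a type and less RNA per cell cannot be told apart.

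The 3 non-SMC subunits of condensin were less uniform, and the cKO libraries were widely spread in each. *Ncapd2*, a HEAT-repeat subunit, stood at 92.0, 102 and 83.8 CPM in wild type and at 96.3, 60.8 and 80.8 CPM in cKO. The first cKO library lay within the wild type values and the others below them, and the log2 fold change was -0.22 (SE 0.182). It was -0.06 without *Piezo1* cKO replicate 2 and -0.39 without *Piezo1* cKO replicate 1. *Ncapg*, the other HEAT-repeat subunit, stood at 38.8, 44.6 and 40.1 CPM against 43.1, 19.8 and 21.2 CPM. Again *Piezo1* cKO 1 was inside the wild type range while cKO 2 and 3 were below it, with a log2 fold change of -0.55 (SE 0.271). It was -0.36 without *Piezo1* cKO replicate 2 and -1.01 without *Piezo1* cKO replicate 1. The kleisin gene *Ncaph* stood at 71.9, 61.3 and 63.8 CPM against 90.0, 42.3 and 67.6 CPM. Its cKO libraries lay on both sides of the wild type values, so that the means of 65.7 ± 5.53 and 66.6 ± 23.9 CPM were close, with a log2 fold change of 0.03 (SE 0.208). It was 0.27 without *Piezo1* cKO replicate 2, and it turned to -0.25 without *Piezo1* cKO replicate 1 and to -0.01 without wild type replicate 2. These genes rested on few counts, from 15 to 40 per library for *Ncapg*. The 3′ end of *Ncapg* also overlaps *Lcorl* on the opposite strand, and since the strand setting of the counting was not given in the sources used here, the counts of *Ncapg* are uncertain. *Lcorl* had between 9 and 18 counts per library.

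**Figure D1:**
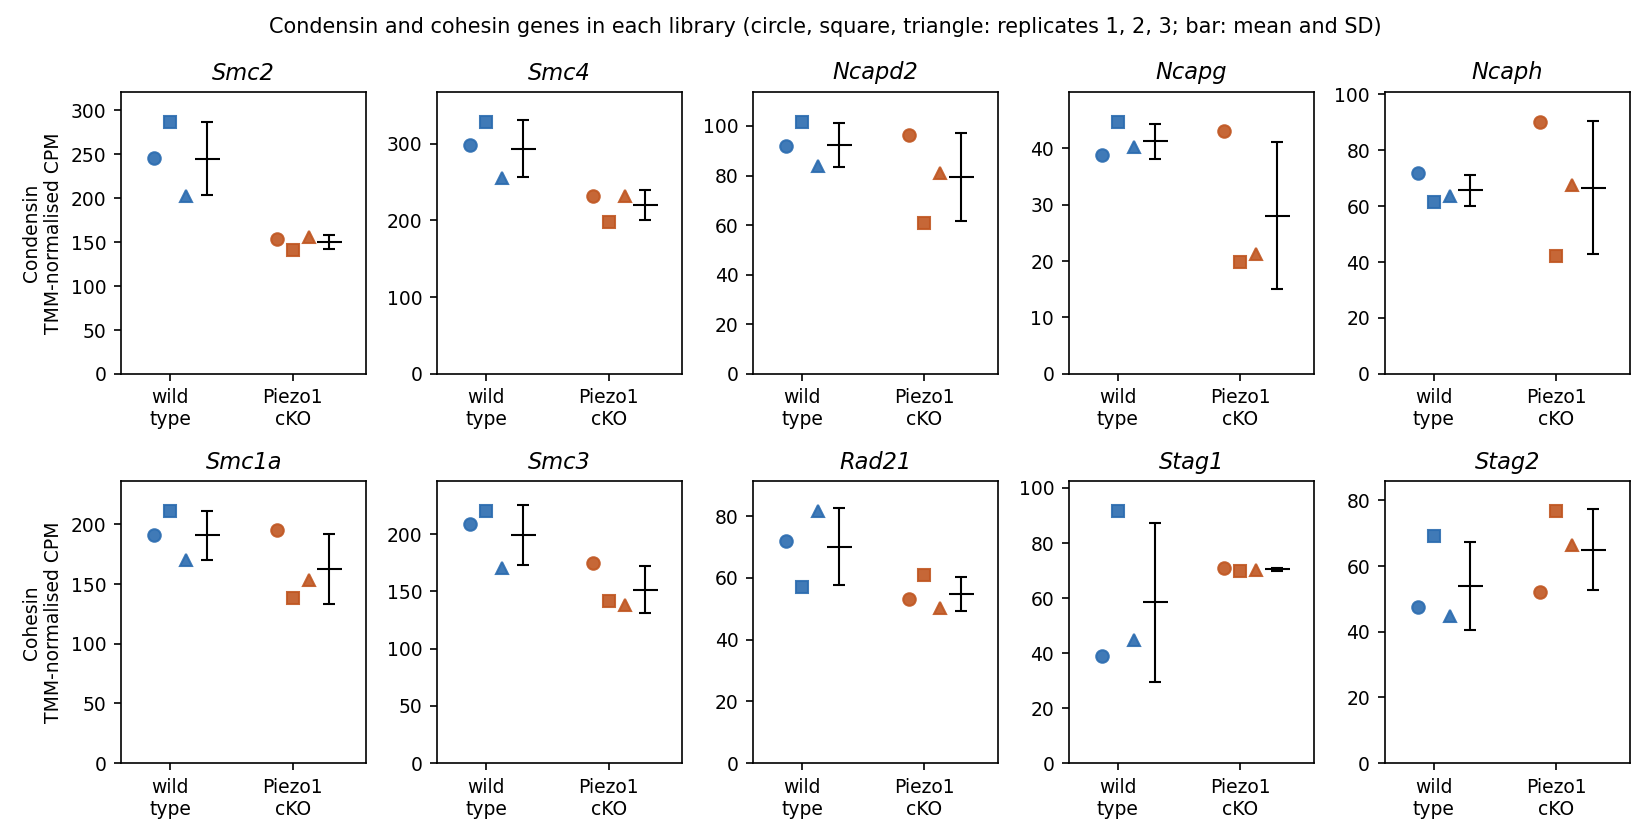
Level of each of the 10 genes in each library, in TMM-normalised CPM on axes that start at 0, with condensin genes above and cohesin genes below. Circles, squares and triangles are replicates 1, 2 and 3, blue for wild type and orange for libraries labelled *Piezo1* cKO, and the black bars are the mean and SD of 3 libraries. The groups are apart for *Smc2* and *Smc4* and overlap for the other 8 genes.

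The groups of both cohesin ATPases overlapped. *Smc1a* stood at 191, 211 and 170 CPM in wild type and at 195, 139 and 154 CPM in cKO, where the first cKO library was again among the wild type values. Its log2 fold change was -0.23 (SE 0.147), from -0.39 without *Piezo1* cKO replicate 1 to -0.13 without *Piezo1* cKO replicate 2. *Smc3* stood at 209, 220 and 170 CPM against 175, 141 and 138 CPM. The groups of *Smc3* overlapped only through *Piezo1* cKO 1 and wild type 3, at means of 199 ± 26.1 and 151 ± 20.5 CPM, and the log2 fold change was -0.40 (SE 0.147), close to that of *Smc4*.

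The kleisin gene *Rad21* stood at 71.9, 56.9 and 81.5 CPM in wild type and at 53.2, 60.8 and 50.4 CPM in cKO, with a log2 fold change of -0.35 (SE 0.206). Its groups overlapped through wild type 2 and *Piezo1* cKO 2, and without wild type replicate 3 the value was -0.22. The alternative HEAT-repeat subunits *Stag1* and *Stag2* had fitted values on the other side of 0. *Stag1* stood at 38.8, 91.5 and 44.9 CPM against 71.0, 70.0 and 70.2 CPM, so that a single wild type library was above all others while the cKO libraries were nearly equal. The coefficient of variation of *Stag1* was 49.3% in wild type and 0.729% in cKO. With 56, 53 and 53 counts in cKO, the low value is not read as a lower variation. The log2 fold change of *Stag1* was 0.24 (SE 0.228). Without wild type replicate 2 it was 0.75, and without wild type replicate 1 or 3 it was 0.04 or 0.07. *Stag2* stood at 47.5, 69.2 and 44.9 CPM against 52.0, 76.6 and 66.3 CPM, with overlapping groups and a log2 fold change of 0.26 (SE 0.213). That value was 0.12 without *Piezo1* cKO replicate 2, 0.13 without wild type replicate 3 and 0.50 without wild type replicate 2.

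Of the 10 genes, 1 was called in the edgeR fit across all genes at a Benjamini-Hochberg adjusted p under 0.05, and it was *Smc2*. Over all genes tested 0.784% were called, 0.316% lower and 0.468% higher in the libraries labelled cKO. The share of higher among the calls was 59.7%. It was 73.1% with total counts only and 44.4% by DESeq2, with 12 higher and 15 lower. This split also rests on the labels. Without *Piezo1* cKO replicate 2, *Smc2* was not called, with a log2 fold change of -0.67 against -0.71. Among the condensin genes 4 of 5 had a log2 fold change below 0, with a median of -0.41, and among the cohesin genes 3 of 5, with a median of -0.23. Of all genes tested 49.8% were below 0, and their median was 0.0021. The groups did not overlap for 2 condensin genes, both lower in cKO, and for 0 cohesin genes, where 8.31% of all genes tested were lower in every cKO library and 8.20% were higher in every one. Since the 10 genes were chosen with such values known, nothing is read from these counts.

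The promoters of the condensin ATPase gene *Smc2* and of the HEAT-repeat subunits are shown as the condensin windows that hold TTTGAA, with that of the cohesin ATPase gene *Smc1a*, which holds none, beside them. The stretches lie upstream of the RefSeq start site in GRCm38.p6, at most 180 bases long and written 5′ to 3′ along the gene. Capitals mark TTTGAA, the core of the cell cycle genes homology region (CHR) through which many genes of G2 and mitosis are controlled, and CCAAT, the box bound by NF-Y. On the reverse strand these read TTCAAA and ATTGG.
Smc2, chr4:52439041-52439220, plus strand: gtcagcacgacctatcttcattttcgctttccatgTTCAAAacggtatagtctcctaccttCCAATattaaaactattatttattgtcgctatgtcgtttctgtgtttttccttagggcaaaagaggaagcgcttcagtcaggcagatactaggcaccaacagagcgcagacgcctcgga
Ncapd2, chr6:125191702-125191766, minus strand: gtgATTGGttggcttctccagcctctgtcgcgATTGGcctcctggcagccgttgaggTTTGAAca
Ncapg, chr5:45669745-45669918, plus strand: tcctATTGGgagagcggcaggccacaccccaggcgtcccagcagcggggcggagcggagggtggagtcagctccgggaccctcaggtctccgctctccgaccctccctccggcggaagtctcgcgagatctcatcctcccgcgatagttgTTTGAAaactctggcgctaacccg
Smc1a, chrX:152016248-152016427, plus strand: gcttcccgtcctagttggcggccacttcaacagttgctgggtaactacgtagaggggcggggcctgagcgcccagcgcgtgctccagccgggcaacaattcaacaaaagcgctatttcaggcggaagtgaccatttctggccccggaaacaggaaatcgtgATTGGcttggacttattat

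In the windows of 250 bases before to 50 after the start, TTTGAA was found in 3 of the 4 condensin genes with a window (*Smc2*, *Ncapd2* and *Ncapg*) and in 0 of the 3 cohesin genes. It is a common run of letters, present in 17.9% of 32851 promoter windows of the same length. CCAAT was found in 3 of 4 condensin and 2 of 3 cohesin genes, against 37.4% of all windows. TTTCCCGC or TTTGGCGC, forms of the site of the E2F factors, was found in 2 of 4 and 2 of 3, against 1.56% of all windows. For comparison, 12 of 16 genes of a list for mitotic chromosomes and G2/M held TTTGAA and 3 of 13 genes of a list for S phase did. Both strands were searched. *Ncaph* and *Smc3* held none of the letters in their windows. *Smc4*, *Rad21* and *Stag2* were not searched. A match is a description of the sequence and not a bound site.

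**Figure D2:**
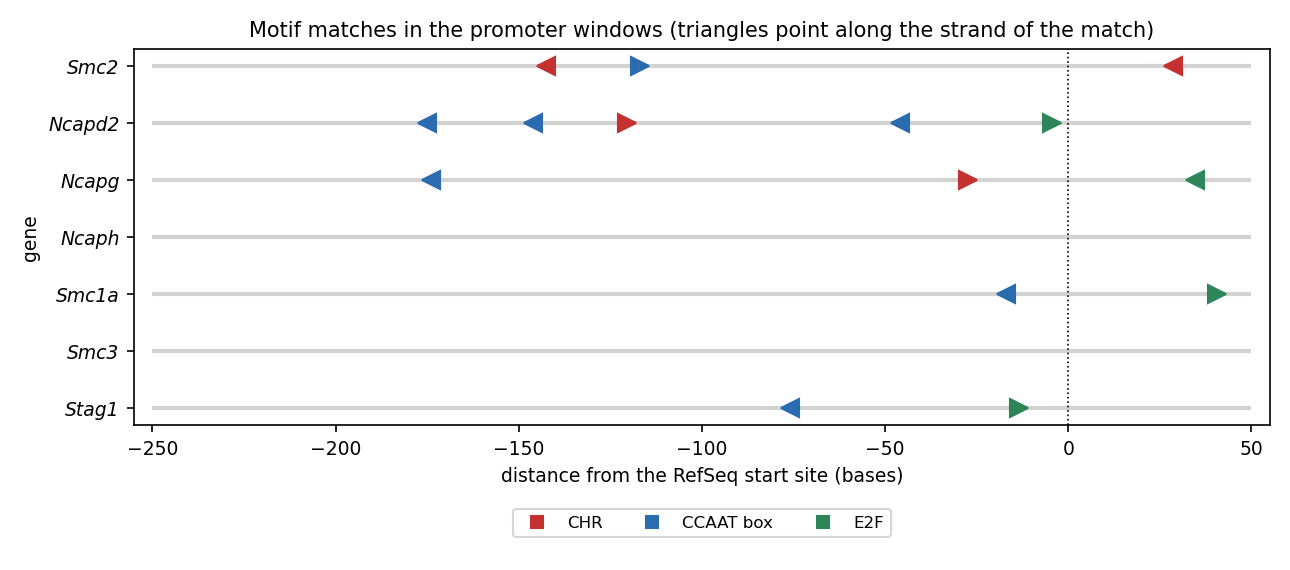
Motif matches in the promoter windows of 7 of the 10 genes, by distance in bases from the RefSeq start site at 0, with CHR in red, CCAAT in blue and E2F in green and triangles pointing along the strand of the match. *Smc2*, *Ncapd2* and *Ncapg* hold a CHR match upstream of the start, and the windows of *Ncaph* and *Smc3* are empty.

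The genes were located in GRCm38 with the GENCODE M21 annotation. *Smc2* lies on the plus strand at chr4:52439243-52488260 and *Smc4* on the plus strand at chr3:69004738-69034623, where its gene body holds the microRNA genes *Mir15b* and *Mir16-2*. *Ncapd2* lies on the minus strand at chr6:125168007-125191701, *Ncapg* on the plus strand at chr5:45669919-45700546 and *Ncaph* on the minus strand at chr2:127103809-127133954. *Smc1a* and *Stag2* are both X-linked, on the plus strand at chrX:152016428-152062694 and chrX:42149317-42277185. *Smc3* lies on the plus strand at chr19:53600398-53645833, *Rad21* on the minus strand at chr15:51962240-51991747 and *Stag1* on the plus strand at chr9:100597798-100959375. The last 500 bases of the transcripts matched those of another gene, over at least 100 bases at 90% identity or more, only for *Ncapg*, which matched *Lcorl*.

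Summed over its 5 genes, condensin stood at 746, 822 and 646 CPM in wild type and at 615, 462 and 558 CPM in the libraries labelled cKO. No cKO library reached the lowest wild type library, and the means were 738 ± 88.4 and 545 ± 77.1 CPM, a difference of -26.2%. This separation rested on *Smc2*: without it the sums were 500.5, 535 and 443 CPM against 461, 321 and 401 CPM, and the groups overlapped. Cohesin summed to 558, 648 and 511 CPM against 546, 487 and 478 CPM. Here the groups overlapped, at 572 ± 69.5 and 504 ± 36.9 CPM, a difference of -12.0%.

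The ratio of both sums within a library needs no scaling between libraries. Condensin counts over cohesin counts were 519 over 388, 737 over 581 and 547 over 433 in wild type, which gave log2 ratios of 0.42, 0.34 and 0.34. In the libraries labelled cKO they were 485 over 431, 350 over 369 and 421 over 361, with log2 ratios of 0.17, -0.08 and 0.22. All cKO libraries were below all wild type libraries, with means of 0.37 ± 0.046 and 0.11 ± 0.159 (SD, n = 3 each) and a difference of -0.26. The cKO libraries were the more spread, and *Piezo1* cKO 2 was the single library with a log2 ratio below 0. Leaving out each library in turn moved the difference between -0.32 and -0.17. The separation of the ratio also rested on *Smc2*. Without its counts, an alternative chosen after seeing the data, the log2 ratios were -0.16, -0.28 and -0.21 in wild type and -0.24, -0.60 and -0.25 in cKO, the groups overlapped, and the difference was -0.15.

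**Figure D3:**
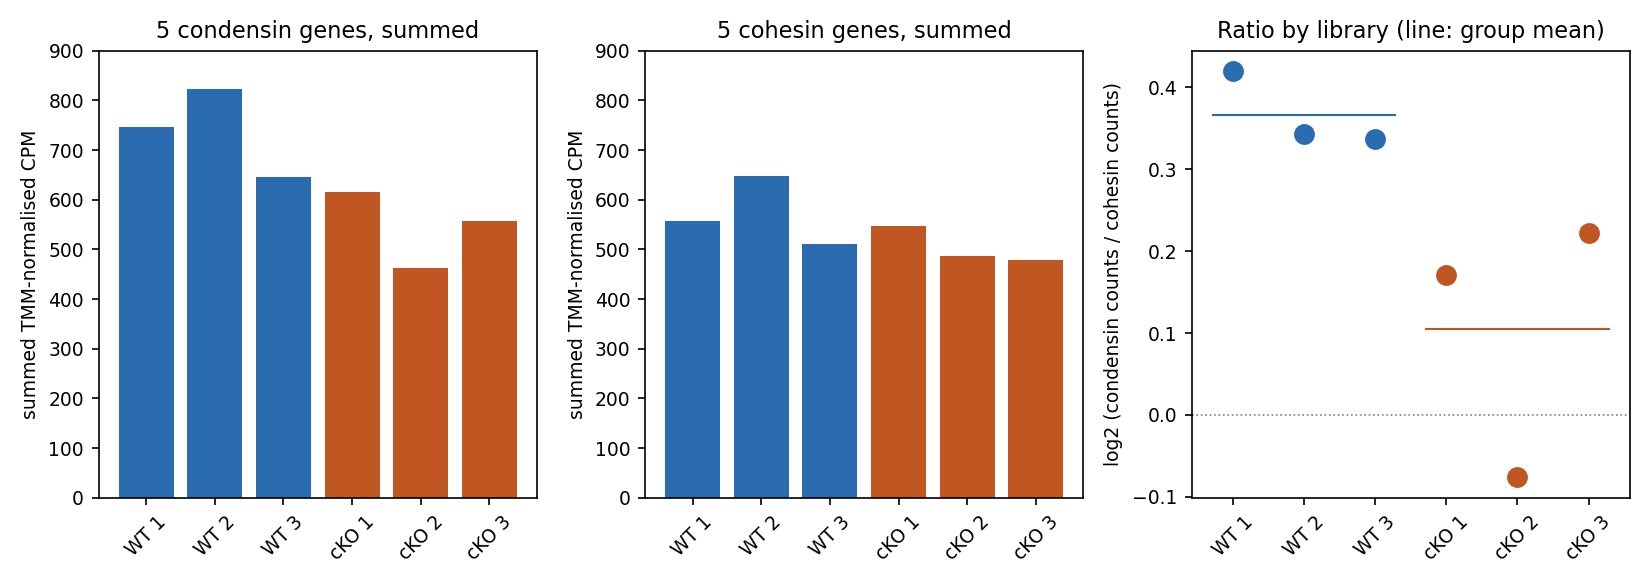
Summed level of the 5 condensin and the 5 cohesin genes in each library in TMM-normalised CPM, and the log2 ratio of their counts within each library, with the group mean as a line and a dotted line at 0. WT (blue) is wild type and cKO (orange) the libraries labelled *Piezo1* cKO. Condensin sums and the ratio, which both include *Smc2*, are lower in each cKO library than in each wild type library, and cohesin sums overlap.

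Within condensin the ATPases did not keep 1 ratio. The log2 ratio of *Smc2* over *Smc4* counts was -0.28, -0.19 and -0.33 in wild type and -0.60, -0.49 and -0.57 in cKO. The groups were apart, at -0.27 ± 0.068 and -0.55 ± 0.057 (SD, n = 3 each), which follows the larger difference of *Smc2*. For the cohesin ATPases, *Smc1a* over *Smc3* gave -0.12, -0.06 and 0 against 0.16, -0.03 and 0.16, with overlapping groups. *Stag1* over *Stag2*, the exchangeable cohesin subunits, gave -0.29, 0.40 and 0 in wild type and 0.45, -0.13 and 0.08 in cKO. These values overlapped throughout. The partner ratios were chosen after the values of the genes had been seen.

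The genes also varied among libraries of the same group. Log2 CPM values were taken as deviations from their group mean and correlated over the 6 libraries, which share the removal of 2 group means and 1 scaling factor per library. Among condensin pairs Pearson's r was above 0 in 10 of 10, with a median of 0.68 and a range from 0.21 to 0.94. Among cohesin pairs it was above 0 in 5 of 10, with a median of -0.09 and a range from -0.79 to 0.91. Between the complexes 16 of 25 pairs were above 0, with a median of 0.51, and over all 36555525 pairs of tested genes the median was 0.00060. The ATPases of each complex varied together, with r = 0.94 for *Smc2* and *Smc4* and r = 0.91 for *Smc1a* and *Smc3*. This was not particular to partners, since *Smc1a* had r = 0.94 with *Ncapd2* and r = 0.79 with *Smc4* of condensin. *Stag1* and *Stag2* had r = 0.72. *Rad21* stood apart, with r = -0.95 with *Smc2* and negative values with all other 9 genes. The negative cohesin pairs were those with *Rad21* and, besides them, *Smc1a* with *Stag2* (r = -0.19). These correlations are descriptions over 6 points, without a test.

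**Figure D4:**
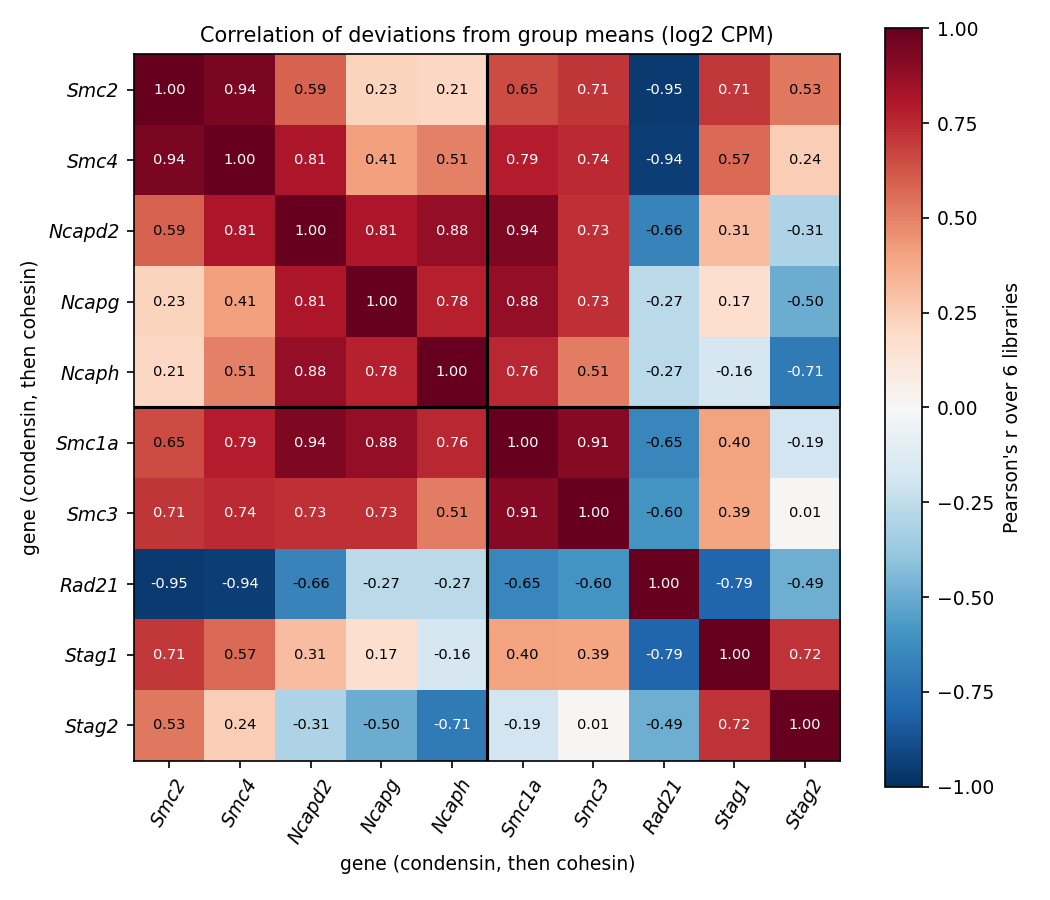
Pearson's r between the 10 genes over 6 libraries, computed on log2 CPM as deviations from the group means, from blue at -1 to red at 1, with lines between condensin and cohesin genes. Condensin pairs are positive throughout, from 0.21 to 0.94, and *Rad21* is negative with the other 9 genes.

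By library, the mean deviation of the condensin genes was 0.03, 0.11 and -0.13 in wild type and 0.31, -0.30 and -0.0035 in cKO. That of the cohesin genes was -0.09, 0.22 and -0.13 in wild type and 0.03, 0.02 and -0.05 in cKO. In these means *Piezo1* cKO 1 and cKO 2 lay apart for condensin and close for cohesin, but the cohesin genes differed in sign. *Smc1a* deviated by 0.27 in cKO 1 and -0.21 in cKO 2, and *Stag2* by -0.29 and 0.25, while the condensin gene *Smc2* had 0.03 and -0.09. Over the same 6 libraries the tested genes most like condensin were *Hdgf* (r = 0.999), *Cdon* (r = 0.998), *Dnajc7* (r = 0.997), *Kif2a* (r = 0.996) and *Gal* (r = 0.995). Those most like cohesin were *Cfap20* (r = 0.993), *Mphosph10* (r = 0.989), *Cep78* (r = 0.988), *Fdxr* (r = 0.986) and *Exosc3* (r = 0.985). They are the highest values among all tested genes outside the 10, and like the others they are given as a description.

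Condensin II shares the ATPases of condensin I and has its own kleisin *Ncaph2* and HEAT-repeat subunits *Ncapd3* and *Ncapg2*. All 3 of its own genes had a log2 fold change below 0, as 49.8% of all genes tested did, with a median of -0.38, and 0 were called (edgeR with Benjamini-Hochberg adjustment over all genes), with 1 at an unadjusted p under 0.05. Over all genes tested, 5.78% were lower and 6.14% higher in cKO at an unadjusted p under 0.05. *Ncapg2* stood at 38.8, 36.8 and 54.3 CPM in wild type and at 30.4, 27.7 and 31.8 CPM in cKO, a log2 fold change of -0.53 (SE 0.258, adjusted p = 0.400). *Ncapd3* stood at 34.5, 42.4 and 33.1 CPM against 27.9, 26.4 and 30.5 CPM, a log2 fold change of -0.38 (SE 0.268, adjusted p = 0.612). For both, each cKO library was below each wild type library, as for 8.31% of all genes tested, and neither passed the test. *Ncaph2* stood at 83.4, 99.3 and 67.3 CPM against 88.7, 67.4 and 87.5 CPM, which overlapped, with a log2 fold change of -0.04 (SE 0.185, adjusted p = 0.961).

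The regulators of cohesin act on its loading, acetylation, protection, cleavage and release. Of 14 listed genes 13 were tested, 10 were below 0 and 3 above, the median log2 fold change was -0.15, and 0 were called by edgeR, with 1 lower and 2 higher at an unadjusted p under 0.05, where 5.78% and 6.14% of all genes were. *Wapl*, which opens the ring and releases cohesin from chromatin, stood at 132, 183 and 152 CPM in wild type and at 136, 115 and 150 CPM in cKO. Its groups overlapped, with a log2 fold change of -0.23 (SE 0.154, adjusted p = 0.579). *Pds5a*, a HEAT-repeat partner of WAPL, averaged 63.7 ± 13.5 and 63.9 ± 2.14 CPM. *Ctcf*, the DNA-binding protein at which cohesin loops stop, averaged 138 ± 27.1 and 114 ± 17.3 CPM, with a log2 fold change of -0.27 (SE 0.162, adjusted p = 0.529).

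*Pttg1*, the securin that holds separase inactive until anaphase, stood at 56.1, 37.9 and 52.0 CPM in wild type and at 60.8, 83.2 and 76.9 CPM in cKO. It was higher in every cKO library, but its log2 fold change of 0.61 (SE 0.211) did not pass the test over all genes (edgeR, adjusted p = 0.168). The subunits of the loader, *Nipbl* and *Mau2*, named after their values were seen, had log2 fold changes of -0.28 (SE 0.207) and 0.49 (SE 0.223). *Esco2*, which acetylates SMC3 in S phase and was likewise named afterwards, had -0.57 (SE 0.274, adjusted p = 0.393). *Hdac8*, the SMC3 deacetylase, had 2 to 7 counts per library and was not tested. *Stag3*, a subunit of meiotic cohesin, had 0 to 4 counts. Of 4 listed genes for meiotic cohesin, it was the 1 found by symbol in the count table.

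The SMC5/6 complex, which acts in DNA repair and replication, lay around 0. Its 6 genes had 3 values below and 3 above 0, with a median of 0.01, and 0 were called by edgeR or had an unadjusted p under 0.05. *Smc6*, one of its ATPases, averaged 183 ± 20.0 CPM in wild type and 156 ± 34.0 CPM in cKO, with a log2 fold change of -0.22 (SE 0.150, adjusted p = 0.595). Its non-SMC subunits *Nsmce1*, *Nsmce3* and *Nsmce4a* had log2 fold changes of -0.10, 0.22 and -0.15, each with overlapping groups.

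**Figure D5:**
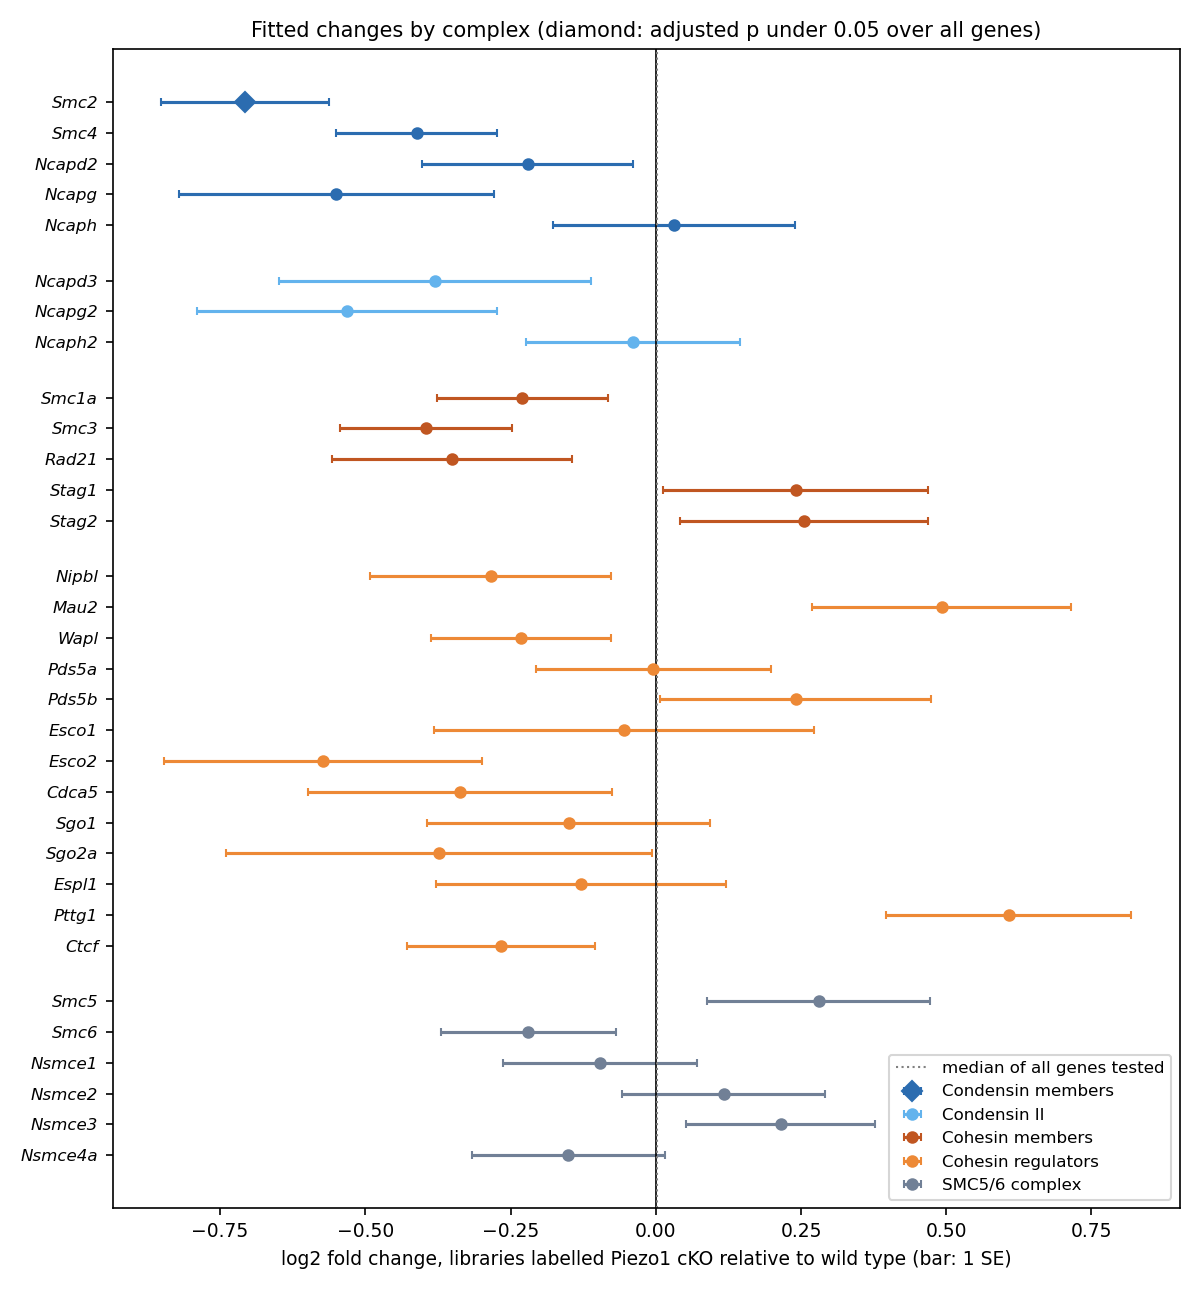
Fitted log2 fold change of the libraries labelled *Piezo1* cKO relative to wild type for each tested gene of 5 groups, with bars of 1 SE from the edgeR fit and a dotted line at the median of all genes tested. A diamond marks an adjusted p under 0.05, which *Smc2* alone has here. Condensin I and II genes lie below 0 apart from *Ncaph*, and SMC5/6 genes lie on both sides.

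Genes that accompany cell division are given beside the condensin genes, since many of them vary with the share of dividing cells. Of 20 genes of mitotic chromosomes and G2/M, 18 were below 0 with a median log2 fold change of -0.20, where 49.8% of all genes tested were below 0. Of the 20 genes 1 was called, where 0.316% of all genes were called lower, and 5 were lower at an unadjusted p under 0.05, where 5.78% of all genes were. This was *Cenpf*, a kinetochore protein, which stood at 141, 143 and 133 CPM in wild type and at 98.9, 91.1 and 78.2 CPM in cKO. The groups were well apart, and *Cenpf* fell by 0.63 on the log2 scale (SE 0.163, edgeR adjusted p = 0.0294). The call was not made by DESeq2, with total counts only, after thinning to the smallest total, under the replicate block, or without any 1 of wild type 1, wild type 2, *Piezo1* cKO 2 and cKO 3. The summed level of the 20 genes was 3894, 4250 and 4002 CPM against 4028, 3014 and 3437 CPM, with overlapping groups.

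Of 14 measured S-phase genes all had a log2 fold change below 0, with a median of -0.25, and 0 were called by edgeR, with 5 at an unadjusted p under 0.05, where 5.78% of all genes were lower. *Rrm2*, a subunit of ribonucleotide reductase and the gene of the list with the most counts, stood at 1532, 1342 and 1364 CPM in wild type and at 1319, 967 and 1289 CPM in cKO. Its log2 fold change was -0.24 (SE 0.149, adjusted p = 0.531), with every cKO library below every wild type library. *Rrm1*, its partner subunit, and *Mcm7* and *Mcm6*, subunits of the replicative helicase, had log2 fold changes of -0.16 (adjusted p = 0.700), -0.25 (adjusted p = 0.571) and -0.17 (adjusted p = 0.678). *Cdc6*, which loads the helicase and was named after its values were seen, had -0.89 (SE 0.238, adjusted p = 0.0567), with every cKO library below every wild type library. It was called with DESeq2 size factors, with no filter, with at least 10 counts in every library, and without wild type replicate 1, wild type replicate 3 or *Piezo1* cKO replicate 1. The summed level of the list was 3881, 4387 and 3907 CPM against 3809, 2903 and 3465 CPM. Every cKO library was below every wild type library on this sum, a difference of -16.4%. By gene, 6 of the 14 were lower in every cKO library and 0 were higher in every one. Of all genes tested, 8.31% were lower and 8.20% higher in every cKO library. *Piezo1* cKO 2 had the lowest sum of both cell cycle lists and of condensin.

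The same library also led the markers of muscle differentiation. The 7 measured markers, of which *Acta1* had the most counts, summed to 292, 112 and 270 CPM in wild type and to 510, 1393 and 672 CPM in cKO. The order of the libraries on this sum, with wild type 2 lowest and *Piezo1* cKO 2 highest, was the reverse of that at both ends of the condensin sum. All 5 tested markers had log2 fold changes above 0, from 1.19 to 2.72, and 0 were called by edgeR, with 4 at an unadjusted p under 0.05, where 6.14% of all genes were higher. *Acta1* (skeletal actin) had a log2 fold change of 2.01 (SE 0.489), *Tnnt3* (fast troponin T) of 1.19 (SE 0.424), *Myog* (myogenin) of 2.09 (SE 0.890) and *Mylpf* (a fast myosin light chain) of 2.72 (SE 0.998). Markers of fibro-adipogenic cells, a minor stromal population, summed to 40.3, 32.3 and 56.7 CPM against 19.0, 18.5 and 21.2 CPM. *Dcn*, which had the most counts of them, fell by 2.17 on the log2 scale (SE 0.385, edgeR adjusted p = 0.000387), and *Pi16* was at 0. *Ly6a*, which encodes the Sca1 that the sort selected against, went the other way, with 2, 2 and 3 counts in wild type and 5, 8 and 9 in cKO, and was too low to be tested. A sort for Sca1-negative cells would remove fibro-adipogenic cells. The part of cell cycle state, differentiation and stromal cells in the differences of the condensin and cohesin genes was not tested.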

How the data were processed

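RNA was sequenced from 3 control and 3 *Piezo1* cKO cultures of MuSCs. The authors mapped reads to GRCm38 with STAR 2.7.9a, assigned them to genes with featureCounts 2.0.1 and counted molecules with UMI-tools 1.1.1, and the deposited values are these raw counts per gene and library, with no normalisation. The version numbers come from the submitters' processing notes. Settings for strand and for reads with several matches were not given in the sources used here. Groups were taken from the sample labels.

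Counts were analysed in R 4.3.3 with edgeR 4.0.16 (TMM, robust quasi-likelihood fit, Benjamini-Hochberg adjustment over 8551 genes kept by its filter with a minimum count of 10, called at an adjusted p under 0.05). The members and gene lists were chosen with earlier results of these data known. Named genes were the 10 members, *Piezo1*, the called genes of each other list, otherwise its 4 with the highest mean CPM, genes under the filter by their counts, and the 5 genes most like each complex. *Pax7*, *Vcam1*, *Nipbl*, *Mau2*, *Esco2* and *Cdc6* were named after their values were seen. The scripts were tested on simulated data. Deviations used log2 CPM with a prior count of 2. Transcript ends were compared with blastn 2.17.0. Promoters came from RefSeq. Floors cover counting error only. Alternatives were DESeq2 1.42.0, limma-voom (limma 3.58.1), other scalings, other filters, a replicate block, thinning and leaving out each library.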

Additional observations from a re-analysis of the deposited data

How the results depend on the processing

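Of the 10 genes, *Smc2* was called in 15 of 16 alternatives, and without *Piezo1* cKO replicate 2 the number called was 0. The gene was chosen with such values known, so these counts do not speak for its stability. With each library left out in turn it ranged from 0 to 1, the genes called in the whole table (67) from 6 without *Piezo1* cKO replicate 2 to 174 without *Piezo1* cKO replicate 1, and the cell cycle genes called (1) from 0 to 5. The whole table gave 27 genes by DESeq2, 129 with no filter on low counts and 124 at an adjusted p under 0.1. Cell cycle genes called were 0 by DESeq2, 0 with total counts only and 0 after thinning, and 2 with DESeq2 size factors, 2 with no filter, 2 with at least 10 counts in every library and 2 at an adjusted p under 0.1. The cause was not tested. With total counts only, the median of all genes moved to 0.078.

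A fit with the replicate block called 46 genes in all, *Smc2* among them, and 0 cell cycle genes. Libraries of the same number had correlations of -0.15, -0.21 and 0.01 in their deviations from the group means. These values cannot decide whether such libraries were prepared together.

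The median log2 fold change was between -0.51 and -0.32 for condensin and between -0.33 and -0.13 for cohesin over 15 alternatives, and the difference in log2 ratio between -0.32 and -0.15 over 11, the last without *Smc2*, where the groups overlapped. *Ncaph* was below 0 in 5 of 15 alternatives (-0.25 to 0.27). *Ncapg* was at -1.01 without *Piezo1* cKO replicate 1. *Piezo1* stayed above 0 in 13 alternatives (0.14 to 0.93). At 15 to 40 counts per library for *Ncapg* and 5 to 12 for *Piezo1*, depth limits what can be seen.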
